A study of Mus musculus with 19 samples.

Results

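Epithelial to mesenchymal transition, or EMT, is the program by which epithelial cells loosen their junctions and take on features of migratory cells. This account follows 10 genes of that program in mouse liver tumors: the transcription factor genes Twist1, Twist2, Snai1, Snai2, Zeb1 and Zeb2, the cadherin genes Cdh1 and Cdh2, and Vim and Fn1. They were taken by symbol from a list of known EMT genes, by a rule that uses no measured value, though earlier results of these data were known when the list was drawn up, and all 10 were found among the 19486 genes of the deposited table. RNA sequencing of liver tumor tissue, annotated as hepatocellular carcinoma in every sample, gave 19 libraries in 5 groups. The groups are MYC_HCC (tumors of the MYC genotype, n = 5), MYC_Twist1_HCC (MYC and Twist1, n = 5), MYC_OFF (n = 3), MYC_Recur (n = 3) and MYC_Twist1_OFF (n = 3), named here as they are labelled. All groups share MYC in their name. The labels give no age, strain, treatment, time, driver of the transgenes or transgene sequence, and do not say how OFF or Recur tumors were obtained or whether each library is a different animal. The p-values therefore reflect library-to-library spread, which may be technical.

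As background, TWIST1 and TWIST2 are basic helix-loop-helix factors, SNAI1 (Snail) and SNAI2 (Slug) are zinc finger repressors, and ZEB1 and ZEB2 are zinc finger homeobox repressors. The SNAI and ZEB proteins bind E-box sequences, among them CACCTG, and are best known for repressing Cdh1, which encodes E-cadherin, the adhesion molecule of epithelial junctions. Cdh2 encodes N-cadherin, which replaces E-cadherin in many EMT settings but is also made by normal hepatocytes, as is the secreted matrix protein fibronectin encoded by Fn1. Vim encodes vimentin, an intermediate filament protein of mesenchymal cells. In bulk tumor tissue, fewer cells of a type and less RNA per cell cannot be told apart.

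Values are the authors' normalized signal, whose unit and length correction are not given, so levels are compared between samples and not between genes. A gene was called higher or lower in a comparison when limma's Benjamini-Hochberg adjusted p was under 0.05 over all 13253 tested genes. Of the 10 genes, 8 passed the filter of a value of at least 1 in at least 3 libraries. Zeb1, Zeb2, Cdh1, Cdh2, Vim and Fn1 reached 1 in all 19 libraries. Snai1 did so in 10 libraries and Snai2 in 8, of which 6 were OFF libraries, so Snai2 passed mainly through the groups where it was high. Twist1 and Twist2 did not pass. The titles mark the 10 HCC libraries as re-analyzed, and the remaining 9 carry no such mark. Group and mark cannot be told apart wherever an HCC group is compared with an OFF or Recur group. Whether libraries with the same mark share a source or a batch is not stated.

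Library totals of the deposited values ran from 507868 to 690310, and the read depth is unknown. Alb and Ttr, defining liver genes, were at least 241.23 and 121.6 in every library. Afp, a fetal liver and tumor gene, was at least 318.38 in 18 libraries and 5.55 in MYC_HCC 4. That library stood apart in other ways. Its hepatocyte marker sum (8 genes) was 10253.18, against at most 6298.48 in the other 18, its stellate or fibroblast marker sum (10 genes) was 140.83, against at most 95.13, and its endothelial marker sum (8 genes) was 91.69, against 13.35 to 23.7 in the other MYC_HCC libraries. Other sums of MYC_HCC 4 were below those of the other 18. The cholangiocyte sum was 12.11 against at least 29.38, and the macrophage sum 259.41 against at least 377.05. The neutrophil sum was 19.92 against at least 28.27, and the epithelial junction sum 960.67 against at least 1009.38. Myc itself was 128.51 in MYC_HCC 4 and 157.92 to 180.46 in the other MYC_HCC libraries. Myc was 102.13 to 152.97 in MYC_Twist1_HCC, 152.38 to 158.64 in MYC_Recur, 33.93 to 59.83 in MYC_OFF and 32.55 to 45.69 in MYC_Twist1_OFF. Results that rest on MYC_HCC 4 are given with and without it.

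Twist1 lay near 0 in all 19 libraries, those labelled Twist1 included. In MYC_Twist1_HCC 1 to 5 its values were 0, 0.05, 0, 0.12 and 0.04, and in MYC_HCC 1 to 5 they were 0.05, 0.05, 0.01, 0.27 and 0.05. The highest value of any library was thus in a tumor not labelled Twist1, and it was MYC_HCC 4. MYC_OFF libraries read 0.06, 0 and 0, MYC_Recur libraries 0.03, 0.03 and 0.02, and MYC_Twist1_OFF libraries 0.02, 0.04 and 0. The mean was 0.042 ± 0.0492 (SD, n = 5) in MYC_Twist1_HCC and 0.086 ± 0.104 (SD, n = 5) in MYC_HCC, and the libraries overlapped (two-sided exact permutation test, p = 0.508, adjusted p = 1; the smallest p possible is 0.00794). The deposited Twist1 signal therefore does not separate the libraries labelled Twist1 from the others. Whether reads from a Twist1 transgene would be counted under this symbol was not tested.

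Twist2, the paralog of Twist1, was listed at 0 in 16 of 19 libraries. The other 3 were MYC_Twist1_HCC 3 at 0.02, MYC_OFF 1 at 0.05 and MYC_Twist1_OFF 1 at 0.07. No difference in either Twist gene passed the exact permutation test over libraries (11 tests, every adjusted p = 1), in which 3 libraries against 3 cannot go below p = 0.1.

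In the genome (GRCm38, GENCODE annotation), Twist1 is on chromosome 12 at 33957671 to 33959829 and Snai1 on chromosome 2 at 167538195 to 167542814, both on the plus strand. Their upstream windows of 250 bases are shown because Twist1 is the factor in the group labels and Snai1 is a repressor whose level differed between groups. The sequences are from RefSeq for GRCm38.p6, at chr2:167537945-167538194 for Snai1 and chr12:33957421-33957670 for Twist1. Capitals mark any CACCTG or CAGGTG.
Snai1: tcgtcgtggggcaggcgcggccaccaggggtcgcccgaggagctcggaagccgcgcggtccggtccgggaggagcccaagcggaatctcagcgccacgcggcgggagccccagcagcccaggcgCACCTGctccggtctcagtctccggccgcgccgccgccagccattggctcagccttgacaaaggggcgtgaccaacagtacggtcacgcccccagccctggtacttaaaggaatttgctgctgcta
Twist1: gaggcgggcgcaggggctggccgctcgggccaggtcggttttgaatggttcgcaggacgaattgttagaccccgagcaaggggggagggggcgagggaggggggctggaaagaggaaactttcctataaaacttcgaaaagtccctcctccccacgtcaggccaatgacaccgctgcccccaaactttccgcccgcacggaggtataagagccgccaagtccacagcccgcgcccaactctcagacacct
The Snai1 window holds 1 CACCTG, whose 5′ base lies 126 bases upstream of the start, and the Twist1 window holds none on either strand. CACCTG or its reverse complement CAGGTG occurs in 17.2% of 32851 mouse promoter windows of this length, and the more general CANNTG, which includes it, in 66.2%. Promoter windows were matched for 5 of the 10 genes. The windows of Twist2, Vim and Zeb2 (4 start sites) hold neither motif, which says only that these letters are not in those windows. Cdh1, Cdh2, Fn1, Snai2 and Zeb1 are named only.

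**Figure D1:**
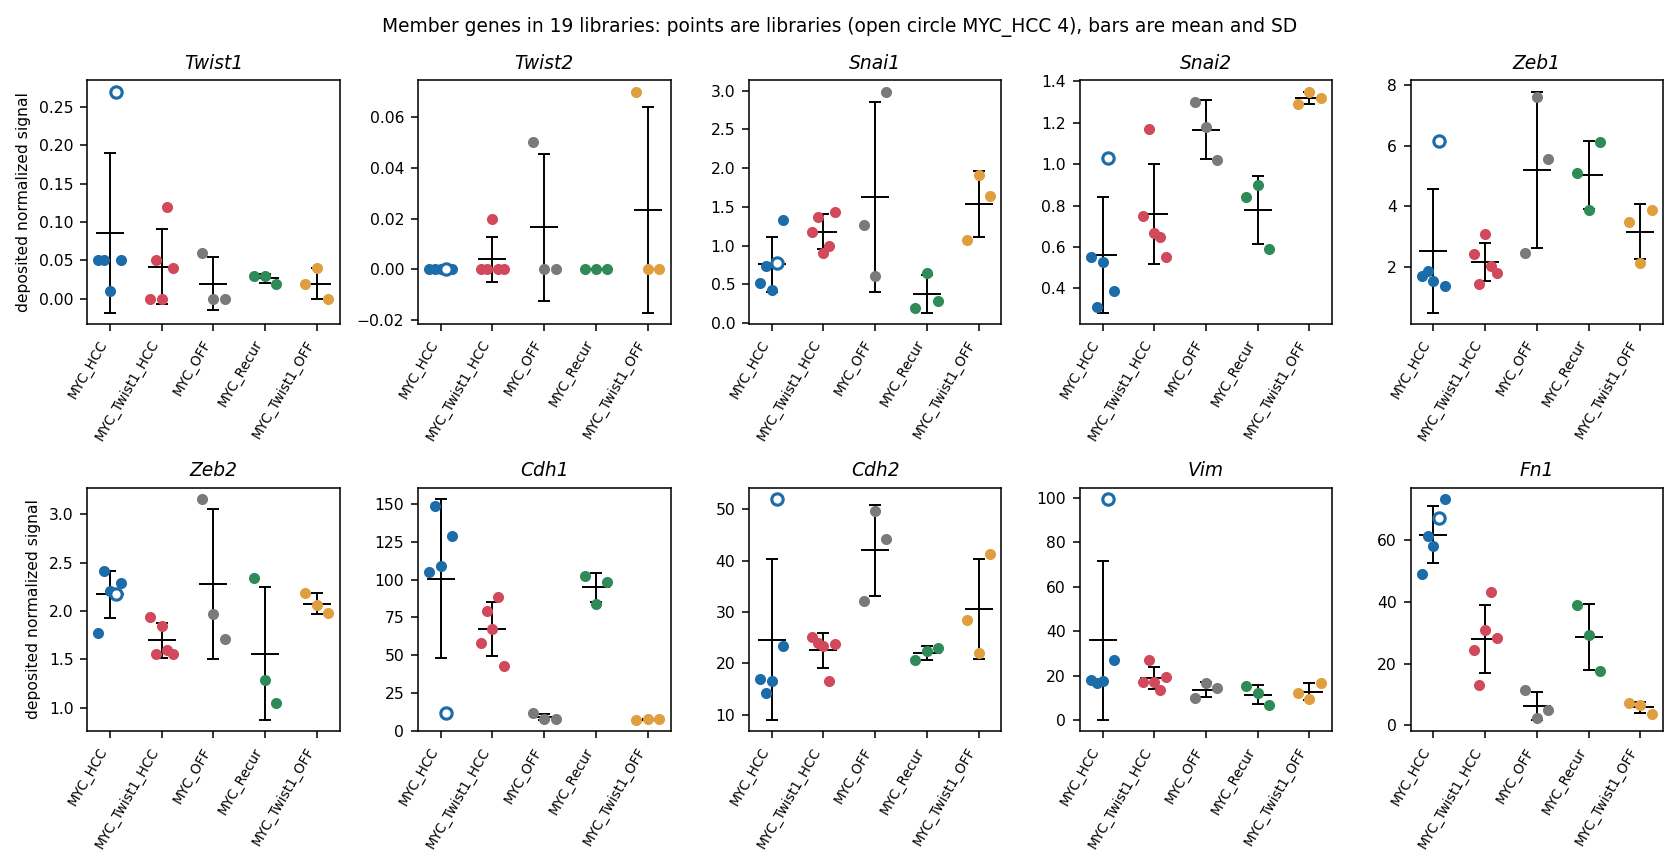
Deposited normalized signal (vertical axes, 1 scale per gene) of the 10 genes in 19 libraries of 5 groups, with points for libraries, an open circle for MYC_HCC 4, and bars for the mean and SD. Cdh1 and Fn1 were low in both OFF groups, Twist1 and Twist2 lay near 0 throughout, and MYC_HCC 4 was far from its group in Cdh1, Vim, Cdh2 and Zeb1.

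Cdh1, on chromosome 8 at 106603351 to 106670246 (plus strand), was the member with the widest span of group means. It read 105.31, 149.09, 108.95, 11.59 and 129.31 in MYC_HCC 1 to 5. In MYC_Twist1_HCC 1 to 5 it read 58.32, 79.32, 67.09, 88.58 and 43.01. Every MYC_Twist1_HCC library thus lay below 4 of the MYC_HCC libraries and above the remaining one, MYC_HCC 4. Cdh1 read 11.6, 7.7 and 7.83 in MYC_OFF, 102.23, 84.23 and 98.28 in MYC_Recur, and 6.88, 7.65 and 7.37 in MYC_Twist1_OFF. The OFF libraries therefore lay below all others apart from MYC_HCC 4, whose value was within the MYC_OFF range. Ordered by mean, the groups were MYC_HCC (101 ± 52.9, SD, n = 5), MYC_Recur (94.9 ± 9.46, SD, n = 3), MYC_Twist1_HCC (67.3 ± 17.8, SD, n = 5), MYC_OFF (9.04 ± 2.22, SD, n = 3) and MYC_Twist1_OFF (7.30 ± 0.390, SD, n = 3). MYC_HCC and MYC_Recur, neighbours in this order, overlapped only through MYC_HCC 4. Their difference did not pass the test (log2 fold change of MYC_Recur against MYC_HCC 0.29, 95% interval -0.86 to 1.44, limma adjusted p = 0.791). Without MYC_HCC 4 it was -0.36 (95% interval -0.83 to 0.11, limma adjusted p = 0.349). These folds compare means of log2 values, so their sign can differ from the order of the means above.

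Fn1, on chromosome 1 at 71585520 to 71653200 (minus strand), also separated the groups. Its values were 49.12, 61.51, 58.04, 67.31 and 73.46 in MYC_HCC 1 to 5 and 24.26, 12.92, 31, 43.29 and 28.15 in MYC_Twist1_HCC 1 to 5, with no overlap. The MYC_OFF libraries read 11.35, 2.39 and 4.98 and the MYC_Twist1_OFF libraries 7.22, 6.53 and 3.78, below every library of the other groups. MYC_Recur libraries read 39.01, 29.21 and 17.72, inside the MYC_Twist1_HCC range and below all MYC_HCC libraries. Means were 61.9 ± 9.24 (SD, n = 5) in MYC_HCC, 28.6 ± 10.7 (SD, n = 3) in MYC_Recur, 27.9 ± 11.002 (SD, n = 5) in MYC_Twist1_HCC, 6.24 ± 4.61 (SD, n = 3) in MYC_OFF and 5.84 ± 1.82 (SD, n = 3) in MYC_Twist1_OFF. An antisense gene that overlaps Fn1, Apol7d, was at most 2.19 in the table. The strand setting of the counting is not given in the sources used here.

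Cdh2, on chromosome 18 at 16588877 to 16809246 (minus strand), ran partly opposite to Cdh1. It read 16.84, 14.21, 16.58, 52.07 and 23.33 in MYC_HCC 1 to 5 and 25.07, 23.95, 23.38, 16.47 and 23.71 in MYC_Twist1_HCC 1 to 5. It read 32.21, 49.6 and 44.23 in MYC_OFF, 20.54, 22.42 and 23.05 in MYC_Recur, and 28.35, 22.04 and 41.27 in MYC_Twist1_OFF. The 3 MYC_OFF libraries lay above all HCC and Recur libraries except MYC_HCC 4, which held the highest value of the series. MYC_Twist1_OFF overlapped MYC_OFF, MYC_Recur and MYC_Twist1_HCC.

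Vim, on chromosome 2 at 13573927 to 13582826 (plus strand), showed little separation. It read 18.01, 16.65, 17.63, 99.62 and 27.22 in MYC_HCC 1 to 5 and 17.02, 26.94, 17.3, 13.53 and 19.55 in MYC_Twist1_HCC 1 to 5. It read 9.91, 16.81 and 14.5 in MYC_OFF, 15.42, 11.99 and 6.88 in MYC_Recur, and 12.26, 9.45 and 16.76 in MYC_Twist1_OFF. Outside MYC_HCC 4 the series spanned 6.88 to 27.22. Vim was called in none of the 7 comparisons, and its MYC_HCC mean of 35.8 ± 35.9 (SD, n = 5) rests on MYC_HCC 4: without that library it was 19.9 ± 4.93 (SD, n = 4), beside 18.9 ± 4.9998 (SD, n = 5) in MYC_Twist1_HCC.

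Zeb1 (chromosome 18, 5591860 to 5775467, plus strand) read 1.7, 1.88, 1.55, 6.14 and 1.37 in MYC_HCC 1 to 5, 2.45, 1.45, 3.09, 2.05 and 1.81 in MYC_Twist1_HCC 1 to 5, and 2.47, 7.58 and 5.55 in MYC_OFF. MYC_Recur read 5.11, 3.87 and 6.11 and MYC_Twist1_OFF 3.48, 2.15 and 3.87. Zeb1 was thus high in the Recur tumors, whose Cdh1 was also high. Zeb2 (chromosome 2, 44983632 to 45117395, minus strand) had a narrow range, from 1.05 in MYC_Recur 3 to 3.16 in MYC_OFF 1, and group means between 1.56 and 2.28 that overlapped in their libraries, apart from MYC_Twist1_OFF lying just above MYC_Twist1_HCC. Gm10125, which overlaps Zeb1 on the opposite strand, was at most 0.96. Zeb2os, antisense to Zeb2, was not matched in the table.

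Snai1 read 0.51, 0.74, 0.43, 0.78 and 1.33 in MYC_HCC 1 to 5 and 1.18, 1.37, 0.91, 1 and 1.43 in MYC_Twist1_HCC 1 to 5, with overlap. It read 1.27, 0.61 and 2.99 in MYC_OFF, 1.07, 1.91 and 1.64 in MYC_Twist1_OFF, and 0.19, 0.65 and 0.28 in MYC_Recur, the lowest group. Snai2 (chromosome 16, 14705852 to 14709385, plus strand) read 1.3, 1.18 and 1.02 in MYC_OFF and 1.29, 1.35 and 1.32 in MYC_Twist1_OFF, against 0.59 to 0.9 in MYC_Recur, 0.55 to 1.17 in MYC_Twist1_HCC and 0.31 to 1.03 in MYC_HCC. These are small signals near the value of 1 that the filter and the log scale use, so their fold changes are understated.

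**Figure D2:**
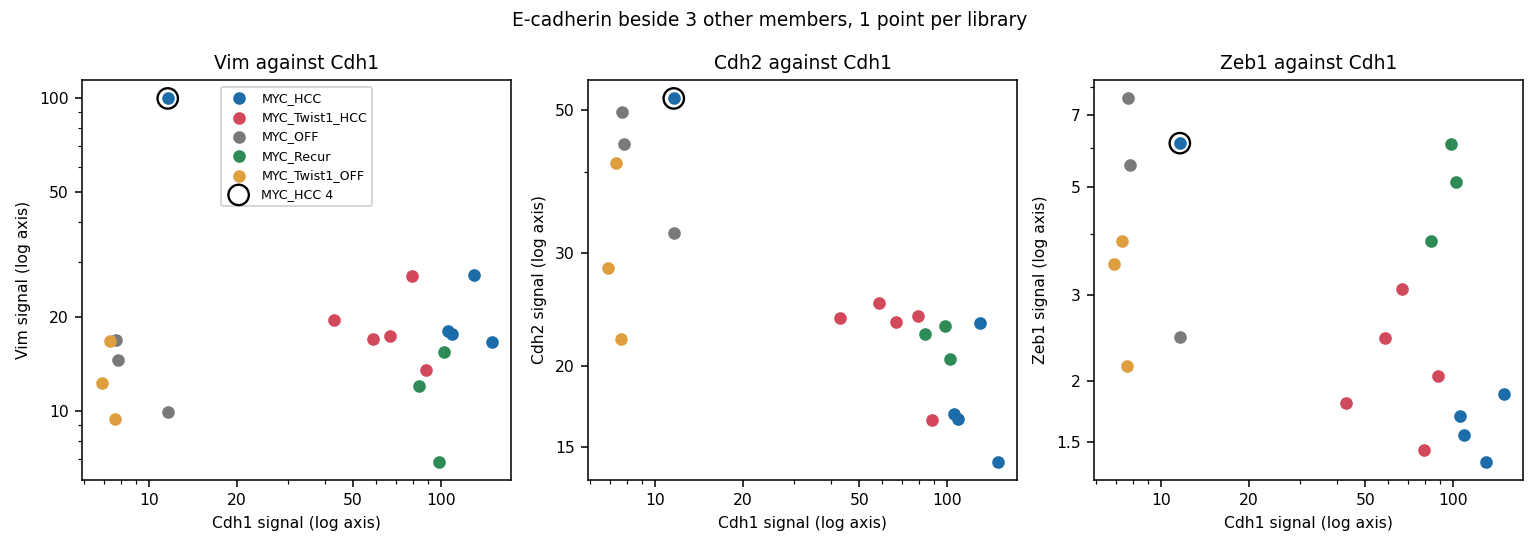
Signal of Vim, Cdh2 and Zeb1 (vertical log axes) against Cdh1 (horizontal log axis), with 1 point per library coloured by group and MYC_HCC 4 ringed. MYC_HCC 4 sits at a Cdh1 of 11.59, within the OFF range, with the highest Vim (99.62) and Cdh2 (52.07), and the 3 MYC_Recur libraries pair a Cdh1 of 84.23 to 102.23 with a Zeb1 of 3.87 to 6.11.

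The comparison of MYC_Twist1_HCC with MYC_HCC asks what differs in tumors labelled Twist1 beside MYC, whose deposited Twist1 signal was no higher. Both groups are marked re-analyzed. Fn1 was lower in MYC_Twist1_HCC, and in the fit of all libraries it was the only member called. No member was called higher. Fn1 fell by 1.203 on the log2 scale (SE 0.33, limma adjusted p = 0.0376), and all 5 MYC_Twist1_HCC libraries lay below all 5 MYC_HCC libraries. The count was 0 higher and 1 lower of 8 tested, where 6.43% of all tested genes were called, 3.2% higher and 3.23% lower. Libraries without overlap and all lower, as for Fn1, were found for 5.95% of genes, and all higher for 5.73%. The Fn1 call was lost on leaving out any 1 of MYC_HCC 2, 3, 4 or 5 or of MYC_Twist1_HCC 1, 2, 3 or 5, with adjusted p between 0.0547 and 0.0864 and a log2 fold change between -1.26 and -0.96.

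Cdh1 was not called in that fit (log2 fold change -0.23, SE 0.47, 95% interval -1.23 to 0.76, adjusted p = 0.80003). Without MYC_HCC 4 it was lower in MYC_Twist1_HCC by a log2 fold change of -0.89 (SE 0.20, 95% interval -1.30 to -0.48, adjusted p = 0.0155). In that fit 5.84% of 13143 genes were called, 2.75% higher and 3.09% lower, and Fn1 was not (-1.17, adjusted p = 0.0607). The Cdh1 call thus rests on leaving out MYC_HCC 4, while the loss of the Fn1 call is shared with the other libraries named above. The repressor genes were not called in either fit: Snai1 gave 0.32 (SE 0.22, adjusted p = 0.390), Snai2 0.18 (SE 0.16, adjusted p = 0.528), Zeb2 -0.23 (SE 0.17, adjusted p = 0.420) and Zeb1 -0.04 (SE 0.30, adjusted p = 0.955), or 0.25 for Zeb1 without MYC_HCC 4. Cdh2 gave 0.03 (95% interval -0.55 to 0.61), and 0.34 (-0.08 to 0.75) without MYC_HCC 4. Vim gave -0.54 (-1.34 to 0.27), and -0.08 (-0.60 to 0.45) without it.

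Marker sums that moved with this comparison were those of the stellate or fibroblast list, at 23.25 to 29.35 in MYC_Twist1_HCC and 32.22 to 140.83 in MYC_HCC, so the ranges did not overlap. Of the 9 tested genes of that list, 2 were lower (Col1a1 and Dcn) and 0 higher, and without MYC_HCC 4 it was 1 lower. The hepatocyte sum did not overlap either, at 3229.15 to 5236.75 against 5248.99 to 10253.18, with 1 of 8 genes (Alb) lower, and 0 without MYC_HCC 4. Over all genes, 3.2% were higher and 3.23% lower in this comparison, and 2.75% and 3.09% without MYC_HCC 4. Of single genes, 5.95% had every MYC_Twist1_HCC library lower. The sum of the mesenchymal list described below, which also holds Col1a1 and Dcn, did not overlap either (301.29 to 370.13 against 375.4 to 866.05). Fn1 and Cdh1 are in none of these lists. The part of fibroblasts, stellate cells or hepatocytes in the Fn1 and Cdh1 differences was not tested.

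In MYC_OFF against MYC_HCC, Cdh1 and Fn1 were lower, and Cdh2 and Zeb1 were higher. Snai2 was also called higher, but it entered the test only because the OFF groups brought it past the filter (2 other libraries reached 1), so its call adds no support. Fn1 fell by 3.31 on the log2 scale (SE 0.38, adjusted p = 1.41e-06), which is 9.89-fold on value + 1. Cdh1 fell by 2.98 (SE 0.55, adjusted p = 0.000172), 7.88-fold on that scale, and by 3.64 (SE 0.22) without MYC_HCC 4. Both calls were kept under all 30 other settings. Of 8 members tested, 3 were called higher and 2 lower, where 58.3% of all genes were called, 18.9% higher and 39.4% lower. Without MYC_HCC 4 the same 5 members were called, where 61.1% of all genes were, 19.3% higher and 41.8% lower. Only Fn1 showed no overlap in all libraries, where 50.1% of all tested genes did and 34.4% of all tested genes had every MYC_OFF library lower. Since most genes of the table were called, a call as such does not set these members apart, but the folds of Cdh1 and Fn1 were at the 2.1 and 1.3 percentile of all tested genes.

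The 3 rises were smaller. Cdh2 was higher by 0.89 (SE 0.32, adjusted p = 0.0225), Zeb1 by 0.86 (SE 0.34, adjusted p = 0.0401) and Snai2 by 0.49 (SE 0.19, adjusted p = 0.0315). Without MYC_HCC 4, whose Zeb1 was in the MYC_OFF range and whose Cdh2 was above it, they were 1.1985, 1.15 and 0.59. The Cdh2 call was lost without any 1 of MYC_HCC 1, 2 or 3 or of MYC_OFF 2 or 3 (adjusted p at most 0.0909). The Zeb1 call was lost without any 1 of MYC_HCC 1, 2, 3 or 5 or of MYC_OFF 2 or 3 (at most 0.216). The Snai2 call was lost without any 1 of MYC_HCC 1, 2 or 5 or of MYC_OFF 1 or 2 (at most 0.0792). None of the 3 was called when only the groups compared were fitted. The Zeb1 call was also lost with no filter and with equal totals, and the Snai2 call with equal totals and the replicate block. Snai1 gave 0.50 (SE 0.26, adjusted p = 0.106) and was called only without MYC_OFF 2 (0.80, adjusted p = 0.0179) and with 3 other scalings. Vim gave -0.96 (SE 0.44, adjusted p = 0.0695) and was called without MYC_HCC 2 or MYC_HCC 3 (-1.13 and -1.11), yet was -0.505 without MYC_HCC 4. Zeb2 gave 0.03 (SE 0.20, adjusted p = 0.913).

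The median tested gene was itself shifted by -0.38 in this comparison. Rescaling the libraries by the median of ratios brought that median to 0.08 and turned the split of all called genes from 2511 higher and 5221 lower to 3918 higher and 3469 lower. Under that scaling Cdh1 and Fn1 kept their direction and call, and Snai1 and Zeb2 were also called higher, at 0.82 and 0.44. The small rises of the repressor genes are thus set in part by the scaling, and the falls of Cdh1 and Fn1 exceeded it.

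**Figure D3:**
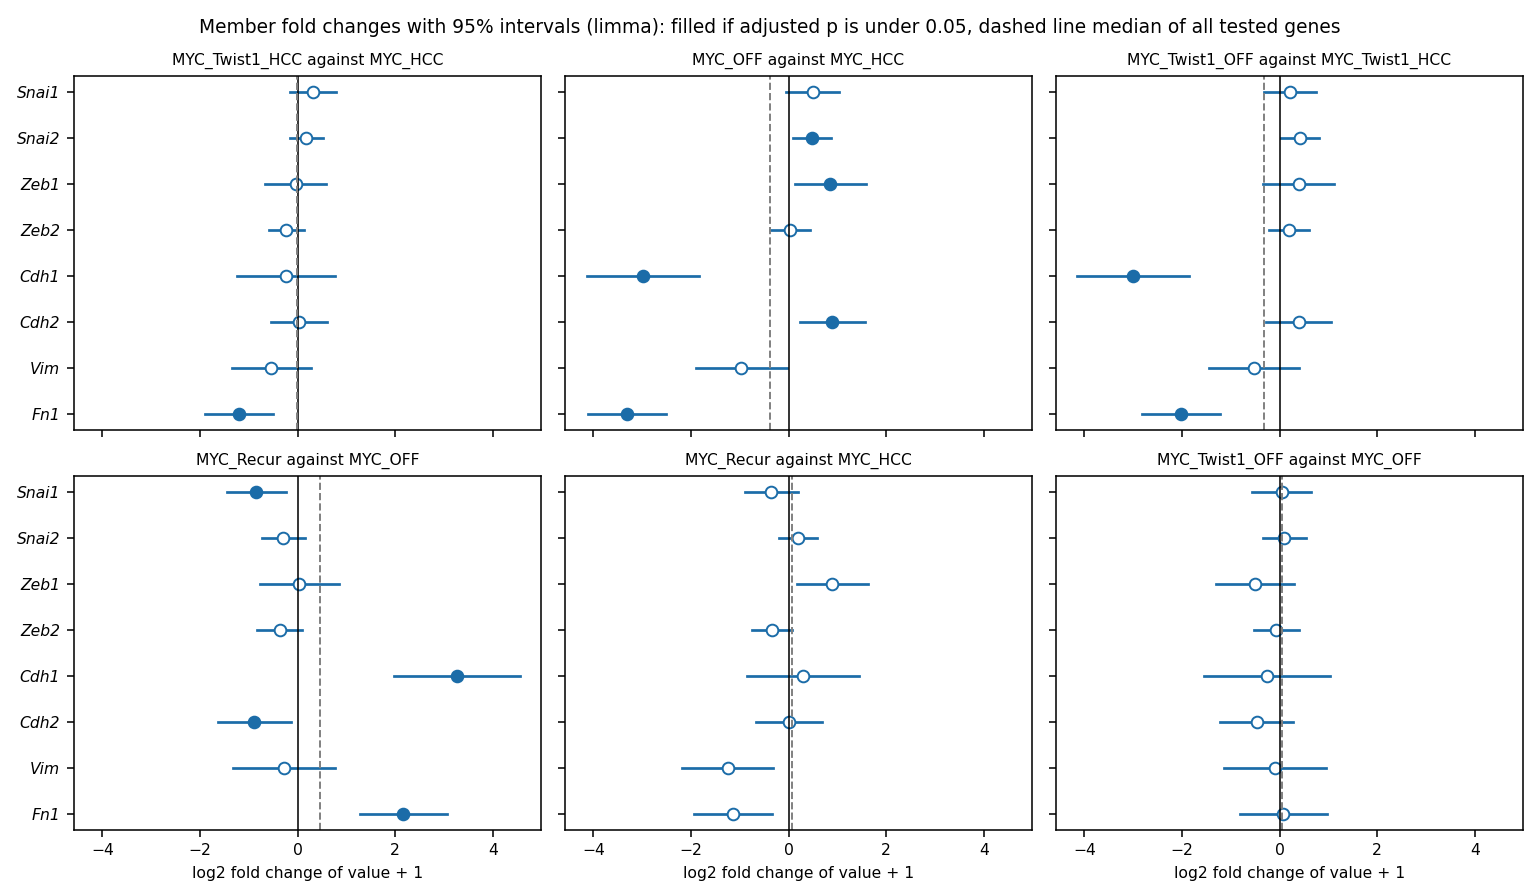
Log2 fold change of value + 1 (horizontal axis) with 95% intervals for the 8 tested members in 6 comparisons, filled where limma's adjusted p was under 0.05, with a dashed line at the median of all tested genes. Cdh1 and Fn1 lie far from that median in the 2 OFF against HCC comparisons and in MYC_Recur against MYC_OFF, while the transcription factor genes lie within about 1 of 0.

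MYC_Twist1_OFF against MYC_Twist1_HCC gave the same for the 2 largest members. Cdh1 fell by 2.998 (SE 0.55, adjusted p = 0.000275) and Fn1 by 2.02 (SE 0.38, adjusted p = 0.000361), with no library overlap for either gene and calls kept under all 30 other settings. These were the only members called, 0 higher and 2 lower of 8, where 46.6% of all genes were called, 13.1% higher and 33.5% lower, and 50.5% of all tested genes showed no overlap and 37.1% had every library lower. Snai2 and Zeb2 did not overlap either, at 0.41 (SE 0.19, adjusted p = 0.0780) and 0.19 (SE 0.20, adjusted p = 0.440), where 13.4% of all tested genes lay wholly higher. Snai2 was called without MYC_HCC 4 (adjusted p = 0.0497) or MYC_Twist1_HCC 2 (0.046). It passed the filter mainly through the OFF groups, so neither its separation nor its calls in this comparison add support. Without MYC_HCC 4, 51.1% of all genes were called, 14.2% higher and 36.9% lower. The median of ratios moved the median gene from -0.32 to 0.03 and the split from 1732 higher and 4446 lower to 2943 and 2676. With it Snai2 and Zeb2 were called higher, at 0.67 and 0.51. Cdh2 gave 0.39 (95% interval -0.28 to 1.06) and Zeb1 0.39 (-0.33 to 1.11).

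Whether the OFF difference depends on the Twist1 label was tested as an interaction. No member was called, where 0.0981% of all genes were (13 of 13253), 0.0226% higher and 0.0755% lower. Fn1 came nearest, with a smaller fall in the Twist1-labelled groups (difference 1.28, SE 0.54, limma adjusted p = 0.613). Its log2 fold change was 0.08 between the OFF groups and -1.20 between the HCC groups. The interaction of Fn1 thus mainly restates the difference between the HCC groups. Fn1 was the only member with an unadjusted p under 0.05 in the fit of all libraries. Without MYC_HCC 4 the 95% interval also left out 0 for Cdh2, at -0.81 (-1.46 to -0.15, adjusted p = 0.519), and Fn1 was 1.25 (0.07 to 2.44), neither of them called, where 0.0989% of 13143 genes were. For Cdh1 the difference was -0.02 with a 95% interval of -1.65 to 1.61, and without MYC_HCC 4 it was 0.64 (-0.01 to 1.29, adjusted p = 0.616).

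The 2 OFF groups, neither of them marked re-analyzed, were compared directly. No member was called in MYC_Twist1_OFF against MYC_OFF, nor was any unadjusted p under 0.05, and 0.00755% of all genes were called (1 of 13253). Cdh1 was the only member without overlap, at 6.88 to 7.65 against 7.7 to 11.6, with a log2 fold change of -0.25 (95% interval -1.54 to 1.03); 4.35% of all genes showed no overlap. Cdh2 gave -0.47 (-1.22 to 0.28), Zeb1 -0.50 (-1.31 to 0.31) and Fn1 0.08 (-0.81 to 0.98).

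MYC_Recur against MYC_OFF compares groups not marked re-analyzed and shares the MYC_OFF libraries with the comparison against MYC_HCC. Cdh1 was higher in MYC_Recur by 3.27 (SE 0.61, adjusted p = 0.000275), 9.66-fold on value + 1, and Fn1 by 2.17 (SE 0.43, adjusted p = 0.000435), both without overlap, as were 53.4% of all genes (41.2% higher, 12.2% lower), and both kept under all 30 other settings. Cdh2 fell by 0.88 (SE 0.36, adjusted p = 0.0473) and Snai1 fell by 0.85 (SE 0.29, adjusted p = 0.0212). Of 8 members 2 were higher and 2 lower, where 49.4% of all genes were called, 37.5% higher and 12% lower.

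The 2 falls were less stable. Cdh2 did not overlap, at 20.54 to 23.05 against 32.21 to 49.6, but its call held in 15 of 30 other settings and was lost without any 1 of 12 libraries: MYC_HCC 1 or 5, MYC_Twist1_HCC 1, 2, 3 or 5, MYC_OFF 2 or 3, MYC_Recur 1, 2 or 3, or MYC_Twist1_OFF 1, with adjusted p up to 0.139. Without MYC_HCC 4, which widens the shared spread, its adjusted p was 0.00545, and 54.1% of all genes were called, 41.3% higher and 12.9% lower. Snai1 overlapped (MYC_OFF 2 at 0.61, MYC_Recur 2 at 0.65), and its call was lost without MYC_OFF 3, MYC_Recur 1 or MYC_Recur 3, with adjusted p of 0.141, 0.0746 and 0.0571. Zeb2 gave -0.37 (SE 0.22, adjusted p = 0.175), and was called lower without MYC_Recur 1 (-0.58, adjusted p = 0.048). Zeb1 gave 0.04 (SE 0.38, adjusted p = 0.942).

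The median gene was 0.45 higher in MYC_Recur than in MYC_OFF, and -0.09 with the median of ratios, which turned the split of called genes from 4964 higher and 1585 lower to 2662 and 3051. Under that scaling Snai2 and Zeb2 were called lower as well, at -0.65 and -0.83, and Zeb1 turned to -0.56 without a call. Snai2 passed the filter mainly through the OFF groups, so its call adds no support. Cdh1 and Fn1 stayed higher and Cdh2 and Snai1 lower under every scaling tried.

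MYC_Recur was also set against MYC_HCC. No member was called, where 10.8% of all genes were, 6.9% higher and 3.93% lower. The unadjusted p was under 0.05 for 3 members: Fn1 at -1.14 (SE 0.38, adjusted p = 0.0634), Vim at -1.24 (SE 0.44, adjusted p = 0.0800) and Zeb1 at 0.90 (SE 0.34, adjusted p = 0.105). All MYC_Recur libraries lay below all MYC_HCC libraries for Fn1 and Vim, where 20.6% of all genes showed no overlap and 7.66% lay wholly lower. Fn1 was called lower under each of 4 scalings, and without MYC_Twist1_HCC 2, MYC_OFF 1 or MYC_OFF 2 (adjusted p of 0.0417, 0.03 and 0.0393). Without MYC_HCC 4, Zeb1 was called higher (1.19, SE 0.28, adjusted p = 0.0119, where 9.75% of all genes were called, 5.99% higher and 3.76% lower), and Vim gave -0.79 (adjusted p = 0.0918). Cdh1 without that library gave -0.36 (95% interval -0.83 to 0.11).

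**Figure D4:**
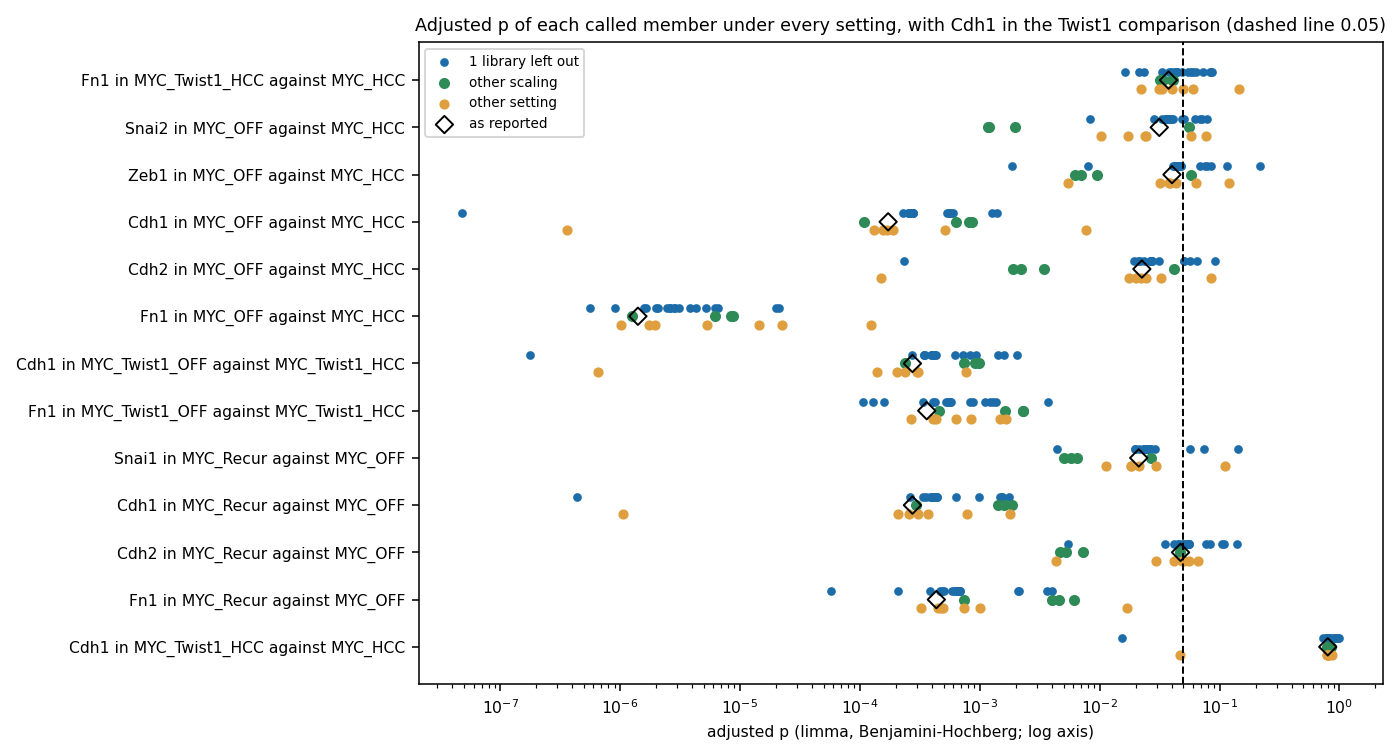
Adjusted p (horizontal log axis, dashed line at 0.05) of the 12 member calls and of Cdh1 in the Twist1 comparison, as reported (diamonds), with 1 library left out, with another scaling or with another setting. The 6 calls of Cdh1 and Fn1 in the OFF and Recur comparisons stayed under 0.05 throughout, the other 6 calls did not, and Cdh1 in MYC_Twist1_HCC against MYC_HCC passed only without MYC_HCC 4, alone or with MYC_HCC 5.

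Related genes were counted in lists that leave the 10 members out. In MYC_OFF the epithelial junction list was called lower at close to the share of all genes, and higher less often. In MYC_OFF against MYC_HCC 3 of 39 tested were higher and 16 lower (median -0.65, all genes -0.38), and in MYC_Recur against MYC_OFF 18 were higher and 2 lower (median 0.85, all genes 0.45). Over all genes, 18.9% were called higher and 39.4% lower in MYC_OFF, and 37.5% and 12% in MYC_Recur. Ctnna1, which encodes the alpha-catenin that ties E-cadherin to actin, fell with Cdh1: it was 72.1 ± 8.72 (SD, n = 5) in MYC_HCC, 31.3 ± 7.35 (SD, n = 5) in MYC_Twist1_HCC, 7.25 ± 4.31 (SD, n = 3) in MYC_OFF, 4.48 ± 0.350 (SD, n = 3) in MYC_Twist1_OFF and 56.1 ± 19.7 (SD, n = 3) in MYC_Recur. It fell by 3.26 in MYC_OFF against MYC_HCC (adjusted p = 1.05e-07) and by 2.53 in MYC_Twist1_OFF against MYC_Twist1_HCC (adjusted p = 2.88e-06). Its log2 fold change was -1.2032 in MYC_Twist1_HCC against MYC_HCC (adjusted p = 0.00751), and MYC_Recur exceeded MYC_OFF by 2.85. Its value in MYC_HCC 4 was 74.51, inside the range of its group, unlike Cdh1. The paired keratins moved apart: Krt8 fell by 2.73 in MYC_OFF, while Krt18 was 4.09 higher, at 1864.45 to 2053.55 against 61.9 to 230.3.

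Among the EMT repressor genes, which encode factors that hold the epithelial state, 3 of 11 were higher and 3 lower in MYC_OFF against MYC_HCC (median 0.91, all genes -0.38, of which 18.9% were higher and 39.4% lower). The counts in MYC_Twist1_OFF against MYC_Twist1_HCC were also 3 and 3 (all genes 13.1% and 33.5%). Esrp2, an epithelial splicing factor gene, and Elf3 fell by 1.88 and 2.17 in MYC_OFF and were 1.55 and 1.95 higher in MYC_Recur than in MYC_OFF. Foxa2, a liver factor, went the other way. It was 3.51 to 16.19 in MYC_HCC, rose to 290.03 to 997.92 for MYC_OFF and read 444.62 to 1051.52 for MYC_Twist1_OFF. It was also 21.15 to 214.22 in MYC_Twist1_HCC, the only list gene of this group called in that comparison (3.58 higher, SE 0.53, adjusted p = 0.000797). Over all genes, 3.2% were higher and 3.23% lower in MYC_Twist1_HCC against MYC_HCC.

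Other EMT regulators, 15 tested, were 2 higher and 6 lower in MYC_OFF against MYC_HCC, and 9 higher and 2 lower in MYC_Recur against MYC_OFF. These shares are to be read beside 18.9% higher and 39.4% lower of all genes in the one comparison and 37.5% and 12% in the other. The 2 higher in MYC_OFF were Hmga1, a chromatin protein gene, and Yap1, a coactivator gene (0.97 higher, SE 0.31, adjusted p = 0.0116). Hmga1 was at 1808.38 to 5071.51 in MYC_OFF and 317.28 to 927.13 in MYC_HCC (2.17 higher, SE 0.48, adjusted p = 0.000909). The list of bHLH partners and inhibitors of TWIST had 6 tested genes, of which 0 were higher and 4 lower in MYC_OFF: Tcf3, Tcf12 and Tcf4, which encode the E proteins that dimerize with TWIST, fell by 1.38, 0.90 and 1.11, and Id1, an inhibitor of E proteins, fell by 1.90. In MYC_Twist1_HCC against MYC_HCC only Id1 of that list was called, where it fell by 1.38 (SE 0.39, adjusted p = 0.0411). Over all genes, 3.2% were higher and 3.23% lower in that comparison.

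The mesenchymal list was likewise called lower at close to the share of all genes in MYC_OFF. Of 35 tested, 4 were higher and 15 lower in MYC_OFF against MYC_HCC (median -0.69, all genes -0.38, of which 18.9% were higher and 39.4% lower), 5 higher and 6 lower in MYC_Twist1_OFF against MYC_Twist1_HCC (all genes 13.1% and 33.5%), and 9 higher and 3 lower in MYC_Recur against MYC_OFF (all genes 37.5% and 12%). In MYC_Twist1_HCC against MYC_HCC 0 were higher and 3 lower (Col1a1, Tpm1 and Dcn), and without MYC_HCC 4 only 1 was lower. Over all genes, 3.2% were higher and 3.23% lower in that comparison, and 2.75% and 3.09% without MYC_HCC 4. Itga5, which encodes the alpha subunit of a fibronectin receptor, fell by 1.65 in MYC_OFF and by 1.47 in MYC_Twist1_OFF, and was 1.75 higher in MYC_Recur than in MYC_OFF, as Fn1 was. Thy1, a surface protein of fibroblasts and other cells, was 2.85 higher in MYC_OFF and 2.19 higher in MYC_Twist1_OFF. Dcn, a defining fibroblast gene, was listed at 0 in all 6 OFF libraries and was 30.04 in MYC_HCC 4. Lrat, a stellate cell gene, went the other way and was 2.38 higher in MYC_OFF and 2.64 higher in MYC_Twist1_OFF than in the HCC group of each.

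Of 19 tested genes of the TGF-beta pathway, a main inducer of EMT, 5 were higher and 4 lower in MYC_OFF against MYC_HCC, where 18.9% of all genes were higher and 39.4% lower. Tgfbr1, the type I receptor gene, was 4.37 higher in MYC_OFF (SE 0.54, adjusted p = 2.73e-06), at 77.33 to 258.54 against 1.7 to 7.65, and 3.83 higher in MYC_Twist1_OFF. Tgfbr2, another receptor gene, went the other way. Its log2 fold change was -1.43 in MYC_OFF (limma adjusted p = 0.00069) and -0.93 in MYC_Twist1_OFF (limma adjusted p = 0.019). The ligand gene Tgfb1 fell by 1.49 in MYC_OFF and by 0.87 in MYC_Twist1_HCC, while the ligand gene Tgfb2 was 2.56 higher in MYC_OFF (adjusted p = 0.00107) and 1.66 higher in MYC_Twist1_OFF (adjusted p = 0.0261). In MYC_Twist1_HCC against MYC_HCC 0 of the 19 were higher and 3 lower (Tgfb1, Smad4 and Smurf1), and without MYC_HCC 4 the counts were 0 and 0. Over all genes, 3.2% were higher and 3.23% lower in that comparison, and 2.75% and 3.09% without MYC_HCC 4.

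**Figure D5:**
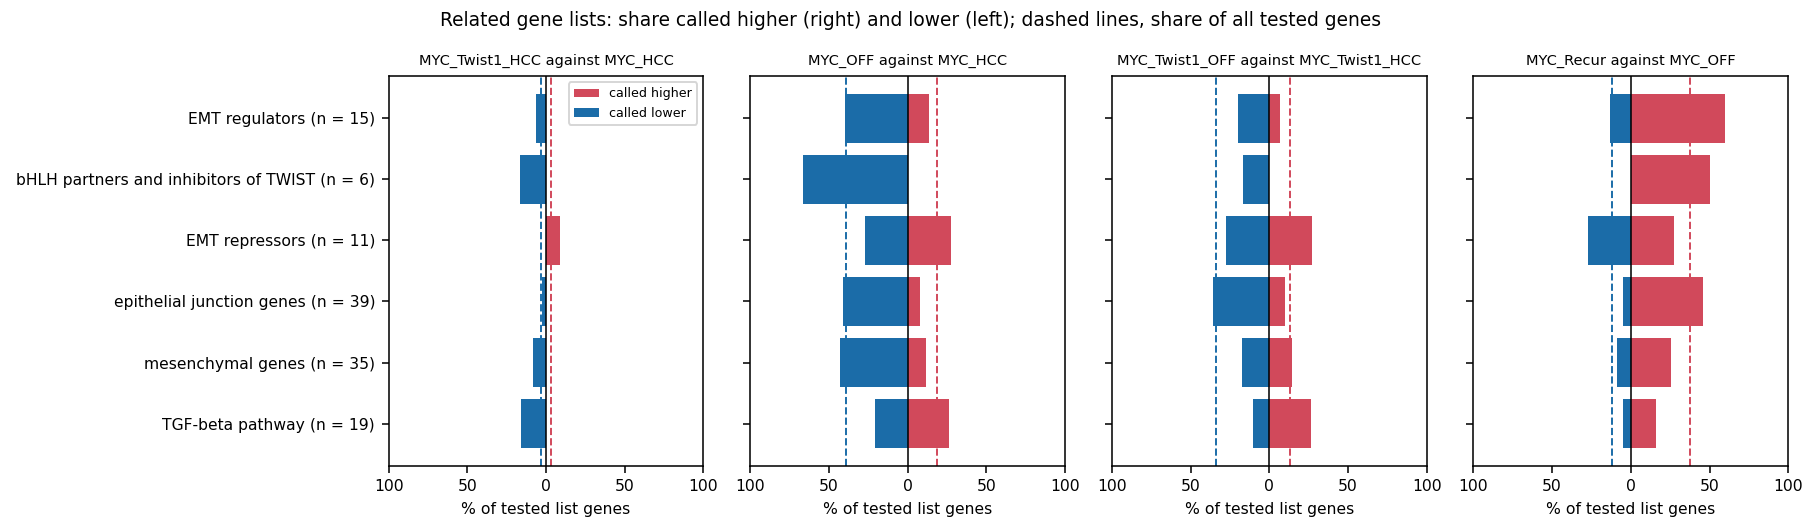
Share of tested list genes called higher (right, red) and lower (left, blue) in 4 comparisons, with dashed lines at the share of all tested genes. The epithelial junction list ran 16 lower and 3 higher of 39 in MYC_OFF and 18 higher and 2 lower in MYC_Recur, and the mesenchymal list ran 15 lower and 4 higher of 35 in MYC_OFF and 9 higher and 3 lower in MYC_Recur.

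Marker sums of other cell types are given beside the OFF groups. The hepatocyte sum reached only 997.15 to 1576.8 for MYC_OFF and 1056.04 to 1191.34 for MYC_Twist1_OFF, against 3229.15 to 10253.18 in the HCC groups and 4558.93 to 5561.55 in MYC_Recur, with 6 of 8 genes lower and 0 higher in MYC_OFF. The stellate or fibroblast sum ran from 21.49 to 50.98 for MYC_OFF and from 32.94 to 39.24 for MYC_Twist1_OFF, against 32.22 to 140.83 in MYC_HCC and 23.25 to 29.35 in MYC_Twist1_HCC, so MYC_OFF overlapped MYC_HCC and MYC_Twist1_OFF lay above MYC_Twist1_HCC. Of its 9 tested genes 1 was higher and 2 lower in MYC_OFF, and 2 higher and 0 lower in MYC_Twist1_OFF. Over all tested genes, 18.9% were higher and 39.4% lower in MYC_OFF, and 13.1% and 33.5% in MYC_Twist1_OFF. Endothelial sums were 33.81 to 90.75 and 66.82 to 115.28 in these groups, against 13.35 to 91.69 in MYC_HCC and 10.91 to 22.63 in MYC_Twist1_HCC, and were carried by Pecam1 at 24.7 to 106.49, while the defining gene Cdh5 was 0.47 to 3.81 in these libraries. Their part in the Cdh1, Fn1 and Cdh2 differences was not tested.

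The genes whose log2 values ran most like each member over the 19 libraries are given as a description, with no test, since the libraries share their groups and scaling. For Cdh1 they were Hook2, Dynlt1c and Soat1 (Pearson r 0.98 each). For Fn1 they were Zfp207, Rrm2 and Cpsf1 (0.96, 0.96 and 0.95). Within groups these r were 0.67, 0.66 and 0.60 for Fn1, while those of Cdh1 were 0.93, 0.95 and 0.98. For Cdh2 they were Plau, Msrb2 and Cpt1b (0.92, 0.89 and 0.88). For Vim they were Apoa4, Slc26a1 and Amdhd1 (0.91, 0.90 and 0.90), which dropped to 0.74, 0.74 and 0.71 without MYC_HCC 4. Snai1 was most like Sirpa, Slc37a3 and Inpp1 (0.905, 0.80 and 0.79), and Snai2 most like Serpinb6b, Nos3 and Kbtbd11 (0.92, 0.89 and 0.87). Within groups these r ran from 0.57 to 0.85 for Snai1 and from 0.58 to 0.77 for Snai2. Zeb1 was most like Parva, Rad18 and Msrb2 (0.82, 0.79 and 0.78), and Zeb2 most like Enpp1, H2-T24 and Supt20 (0.84, 0.79 and 0.78).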

How the data were processed

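One table holds the normalized signal that the authors deposited for each gene symbol, with 19 sample columns. Tools named in the submitters' processing notes are Trimmomatic, STAR, Picard, featureCounts and DESeq2, and the build is mm10; for their versions and roles and the scaling of the values, nothing is stated in the sources used here. Of 19511 rows, 25 were named by bare numbers and dropped. No counting interval can be given for such values. limma 3.58.1 under R 4.3.3 was run on log2(value + 1) with a mean-dependent prior, for the 13253 genes with a value of at least 1 in 3 or more libraries. All 5 groups entered 1 model (14 residual degrees of freedom), and each of the 7 comparisons had two-sided tests with Benjamini-Hochberg adjustment over all of these genes. Genes under the filter had exact permutation tests instead. The model was also run on simulated data with normal spread, in which genes of higher signal were given a large shift. That run does not cover genes of low signal, small shifts or an outlying library. Alternatives changed the pseudocount, filter, scaling (4 ways), samples fitted, spread prior and replicate block, or left out libraries; list counts without MYC_HCC 4 were added after its values were seen.

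The members and lists were chosen with earlier results of these data known. Named genes are the members, for each tested member the 3 genes most like it (predicted and clone names left out), of each list up to 4 called genes per comparison with the smallest p and 1 more where a list went both ways, and the liver and cell type markers. Myc, Yap1, Apol7d, Gm10125 and Zeb2os, and Tgfb2 in the OFF comparisons, were added after values were seen. A gene that this rule names is not reported here.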

Additional observations from a re-analysis of the deposited data

Results flagged for a closer look

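Of 20 groups of 5 libraries tested (10 genes in MYC_HCC and MYC_Twist1_HCC), 6 had a highest or lowest library whose gap to its neighbour, on log2(value + 1), was more than 0.71 of the group's range. Chance flags about 1 in 20 such groups, and the 10 genes share their libraries. MYC_HCC 4 accounts for 4 of the 6, with Cdh1 at 11.59, Vim at 99.62, Zeb1 at 6.14 and Twist1 at 0.27, against 105.31 to 149.09, 16.65 to 27.22, 1.37 to 1.88 and 0.01 to 0.05 in the other 4 libraries of its group. In MYC_Twist1_HCC 3, Twist2 was 0.02 and at 0 in the other 4, so any value above 0 would have been flagged. Twist2 was 0 in all 5 MYC_HCC libraries, which have no range. The rate of 1 in 20 therefore does not hold for Twist2. In MYC_Twist1_HCC 4, Cdh2 was 16.47, against 23.38 to 25.07 in the other 4.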

How the results depend on the processing

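Of 12 member calls, 6 were kept under every setting: those of Cdh1 and Fn1 in MYC_OFF against MYC_HCC, MYC_Twist1_OFF against MYC_Twist1_HCC and MYC_Recur against MYC_OFF. The number of members called in MYC_Twist1_HCC against MYC_HCC was 1, but 0 with no filter, and 0 to 1 with 1 library left out. In MYC_OFF against MYC_HCC it was 5, but 7 with median-of-ratios or upper-quartile scaling, 6 with the trimmed mean, 3 with equal totals, 2 with only the groups compared and 2 to 5 with 1 library left out. With no filter, the Zeb1 call of that comparison was lost. In MYC_Twist1_OFF against MYC_Twist1_HCC it was 2, but 4 under each scaling other than equal totals, and 2 to 3 with 1 library left out. Snai2, which passed the filter mainly through the OFF groups, was among the members gained. It was also called in that comparison with no filter. In MYC_Recur against MYC_OFF the number was 4, but 6 under each scaling other than equal totals, with Snai2 again among those gained. The number was 3 with no filter, without the trend and with only the groups compared, and 2 to 4 with 1 library left out. In MYC_Recur against MYC_HCC it was 0, but 1 under each of the 4 scalings, without both MYC_HCC 4 and 5, and with only the groups compared, and 0 to 1 with 1 library left out. In the other 2 comparisons it was 0 throughout. Values of uncalled members near 0 changed sign. Without both MYC_HCC 4 and 5, Zeb1 and Vim in MYC_Twist1_HCC against MYC_HCC were 0.21 and 0.075, Cdh1 in MYC_Recur against MYC_HCC was -0.34, and the interaction was 0.61 for Cdh1 and -0.17 for Vim. Zeb2 in MYC_OFF against MYC_HCC was -0.0067 with equal totals, where the interaction for Cdh1 was 0.0495. Zeb1 in MYC_Recur against MYC_OFF was -0.56, -0.51, -0.47 and -0.0389 with the median of ratios, upper quartile, trimmed mean and equal totals. In that order Cdh2 in MYC_Recur against MYC_HCC was -0.10, -0.0376, -0.0828 and -0.12. Snai1 in MYC_Twist1_OFF against MYC_OFF was -0.0193 with the median of ratios and -0.0249 with the trimmed mean. With 1 library left out, MYC_Twist1_HCC against MYC_HCC ranged from -0.14 to 0.25 for Zeb1, -0.89 to 0.0023 for Cdh1 and -0.12 to 0.34 for Cdh2, and Zeb2 in MYC_OFF against MYC_HCC from -0.16 to 0.15. MYC_Recur against MYC_OFF ranged from -0.33 to 0.32 for Zeb1 and -0.51 to 0.0162 for Vim, and MYC_Recur against MYC_HCC from -0.36 to 0.53 for Cdh1 and -0.13 to 0.32 for Cdh2. MYC_Twist1_OFF against MYC_OFF ranged from -0.26 to 0.40 for Snai1, -0.19 to 0.12 for Zeb2, -0.30 to 0.0877 for Vim and -0.37 to 0.57 for Fn1. The interaction ranged from -0.58 to 0.0711 for Snai1, -0.18 to 0.0015 for Snai2, -0.26 to 0.64 for Cdh1 and -0.0183 to 0.63 for Vim. No pairing by replicate number was assumed. Of 32 same-numbered pairs, r ran from -0.21 to 0.38 and 10 were over 0.1. Of 110 other pairs, r ran from -0.45 to 0.28 and 18 were over 0.1. Whether the replicate numbers pair the samples was not tested. With the replicate block, 4 members were called in MYC_OFF against MYC_HCC, 3 in MYC_Recur against MYC_OFF and otherwise as many as without it, and Cdh1 in MYC_Recur against MYC_HCC was -0.0465. The cause of these changes was not tested. Depth is unknown, so differences among values near 0 have no stated precision.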
